A study of Mus musculus with 18 samples.

Results

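The liver X receptors (LXRs) and their targets in lipid handling were followed in a mouse macrophage line. Treatments were compounds used to inhibit the corepressors CtBP1 and CtBP2, given with or without deletion of both. The genes were taken by symbol: the receptor genes Nr1h2 and Nr1h3, and 8 target genes, Abca1, Abcg1, Apoe, Mylip, Srebf1, Scd1, Scd2 and Lpcat3. All 10 were among the 18204 genes of the expression table, and all 10 were among the 16383 genes that passed the filter on low expression and were tested.

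LXRα, encoded by Nr1h3, and LXRβ, encoded by Nr1h2, are nuclear receptors for oxysterols, and they bind DNA together with a retinoid X receptor. Without ligand they hold corepressors at target genes, and with ligand they recruit coactivators. In macrophages their targets export cholesterol to lipoproteins, restrain uptake of low-density lipoprotein, and drive synthesis and remodelling of unsaturated fatty acids and phospholipids.

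RNA was sequenced from J774.1 cells, a mouse macrophage-like line, in 18 samples that form 6 groups of 3. Wildtype cells and cells in which both Ctbp1 and Ctbp2 had been targeted (dKO) each received vehicle, 1.5 mM MTOB or 0.25 mM 4-Cl-HIPP for 4 h. MTOB and 4-Cl-HIPP are small molecules used as inhibitors of CtBP proteins, and CtBP activity was not measured here. Cas9 ribonucleoprotein was used to edit the cells, and Ctbp1 and Ctbp2 each carry a frameshift with a premature stop in the dKO line. The edited cells were grown out from single cells, and the number of clones behind the dKO libraries is not given in the sources used here.

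Each genotype had a single vehicle group, of PBS or DMSO, so the MTOB and 4-Cl-HIPP comparisons within a genotype share their vehicle samples. The inhibitors were used at different concentrations, so their values are set side by side and were not compared directly. The labels name polyA RNA, while the methods describe depletion of ribosomal RNA with an unstranded library kit. The methods call the triplicates biological and do not state separate cultures, so the p-values measure the spread between these samples.

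Expression is given as TPM, a share of all transcripts in the library scaled for transcript length. The samples summed to between 999766 and 999897 TPM, so the read depth of each library is unknown. Tests were made with limma on log2(TPM + 1), a scale that understates changes of genes at low TPM, and a gene passed when its Benjamini-Hochberg adjusted p over the 16383 genes was below 0.05. Spreads are SDs over n = 3 samples, and fold changes are log2 differences on that scale.

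The targeted genes were examined first. Ctbp1 ranged from 170 to 238 TPM over the 9 wildtype samples and from 19.7 to 31.5 TPM over the 9 dKO samples, and its vehicle difference was −3.07 (SE 0.13, adjusted p = 1.61e-10 by limma). Ctbp2 ranged from 87.8 to 96.9 TPM in wildtype and from 68.5 to 81.9 TPM in dKO, a vehicle difference of −0.28 (SE 0.06, adjusted p = 0.00427 by limma). The ranges of both genes were separate between the genotypes. Ctbp2 transcript was still present in every dKO sample, which does not speak to the protein, and protein was not analysed here.

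Macrophage identity was checked with 7 marker genes, all of which were listed. Their summed expression was 2216 to 2568 TPM per sample, and Csf1r, the receptor for macrophage colony-stimulating factor, was the most abundant at up to 942 TPM. Genes that mark other cell types were near 0: of 5 B and T cell markers the table listed 1, Cd79a, at no more than 0.302 TPM. Of 4 fibroblast markers it listed Col1a1, at no more than 1.05 TPM, and of 4 epithelial markers Krt8, at no more than 0.295 TPM. Plin1, the listed 1 of 4 hepatocyte and adipocyte markers, reached 0.145 TPM. Some macrophage markers moved with the groups: Adgre1, which encodes F4/80, averaged 29.1 ± 5.55 TPM in wildtype vehicle, 102 ± 4.43 TPM in wildtype MTOB and 8.93 ± 1.04 TPM in dKO vehicle. Adgre1 rose with MTOB in wildtype (1.79, adjusted p = 1.01e-05 by limma) and was lower in dKO under vehicle (−1.59, adjusted p = 1.49e-05). Itgam, the CD11b gene, was higher in dKO under vehicle (1.57, adjusted p = 2.26e-05 by limma).

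Over the 7 markers, with genes named after their values were seen, 3 rose and 0 fell with MTOB in wildtype (3.80% and 3.46% of all genes), and 2 rose and 0 fell in dKO (3.04% and 3.54%). Beside Adgre1 these were the lysozyme gene Lyz2 in both (0.37 and 0.24, adjusted p = 4.78e-06 and 0.000541 by limma), Cd68 in wildtype (0.15, adjusted p = 0.0221) and Spi1, the gene of the transcription factor PU.1, in dKO (0.34, adjusted p = 0.00593). The Cd68 call was lost without a variance trend (0.101), when other groups were left out of the fit (0.154), and without wildtype vehicle replicate 1 (0.0902) or 3 (0.0916) or wildtype MTOB replicate 1 (0.110) or 2 (0.0551), and the Spi1 call was lost when other groups were left out of the fit (0.115). Csf1r differed by −0.22 and −0.20 with MTOB (adjusted p = 0.194 and 0.255 by limma), which did not pass. With 4-Cl-HIPP limma called 0 of 7 in each genotype (0.366% and 0.501% of all genes). Under vehicle 3 were higher in dKO, Itgam, Cd68 (0.21, adjusted p = 0.00102 by limma) and Fcgr1 (0.62, adjusted p = 0.00937), and 1 was lower, Adgre1 (7.01% and 3.72% of all genes). The Fcgr1 call was lost when other groups were left out of the fit (0.0845), and without dKO vehicle replicate 2 (0.0545).

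Under MTOB and under 4-Cl-HIPP 2 markers were higher in dKO, Itgam and Cd68, and 2 were lower, Adgre1 and Lyz2 (6.98% and 4.18% of all genes under MTOB, 6.60% and 3.63% under 4-Cl-HIPP). Itgam differed by 1.49 and 1.85 (adjusted p = 3.97e-05 and 4.09e-06 by limma) and Adgre1 by −2.92 and −1.49 (adjusted p = 1.76e-08 and 2.99e-05), under MTOB and 4-Cl-HIPP in turn. Cd68 differed by 0.14 and 0.14 (adjusted p = 0.0214 and 0.0202 by limma) and Lyz2 by −0.23 and −0.12 (adjusted p = 0.000296 and 0.0416). The Cd68 call under MTOB was lost without a variance trend (0.0963), when other groups were left out of the fit (0.178), and without wildtype MTOB replicate 2 (0.0673) or 3 (0.107) or dKO MTOB replicate 2 (0.0603) or 3 (0.0995). Under 4-Cl-HIPP it was lost without a variance trend (0.0952), and without wildtype 4-Cl-HIPP replicate 1 (0.0715) or 2 (0.0587) or dKO 4-Cl-HIPP replicate 1 (0.0674), 2 (0.0540) or 3 (0.0509). The Lyz2 call under 4-Cl-HIPP was lost with a pseudocount of 0.1 (0.0533), without a variance trend (0.161), when other groups were left out of the fit (0.181), and without wildtype vehicle replicate 1 (0.0538), wildtype MTOB replicate 2 (0.0540), wildtype 4-Cl-HIPP replicate 2 (0.188), dKO vehicle replicate 1 (0.0501), 2 (0.0546) or 3 (0.0525) or dKO 4-Cl-HIPP replicate 1 (0.0894), 2 (0.0995) or 3 (0.106). In the interactions limma called 0 of 7 markers (0.0916% of all genes for MTOB and 0% for 4-Cl-HIPP), with 3 and 1 at an unadjusted p below 0.05, against 1128 and 734 of all genes. The part of these marker differences in the results below was not tested, and in bulk RNA fewer cells of a type and less RNA per cell cannot be told apart.

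The 10 genes covered a wide span of levels, which TPM lets one compare per transcript length. Scd2 was the most abundant, with a mean of 265 TPM over the 18 samples, followed by Srebf1 at 69.6, Scd1 at 65.6, Nr1h2 at 49.0 and Lpcat3 at 32.1 TPM. Abcg1, Apoe and Mylip had means of 16.7, 16.3 and 14.1 TPM. Nr1h3 was low at 3.98 TPM, and Abca1 was lowest at 0.270 TPM. Of the receptor pair, LXRβ transcript was thus the more abundant form in every sample: Nr1h2 never fell below 39.3 TPM and Nr1h3 never exceeded 5.95 TPM.

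**Figure D1:**
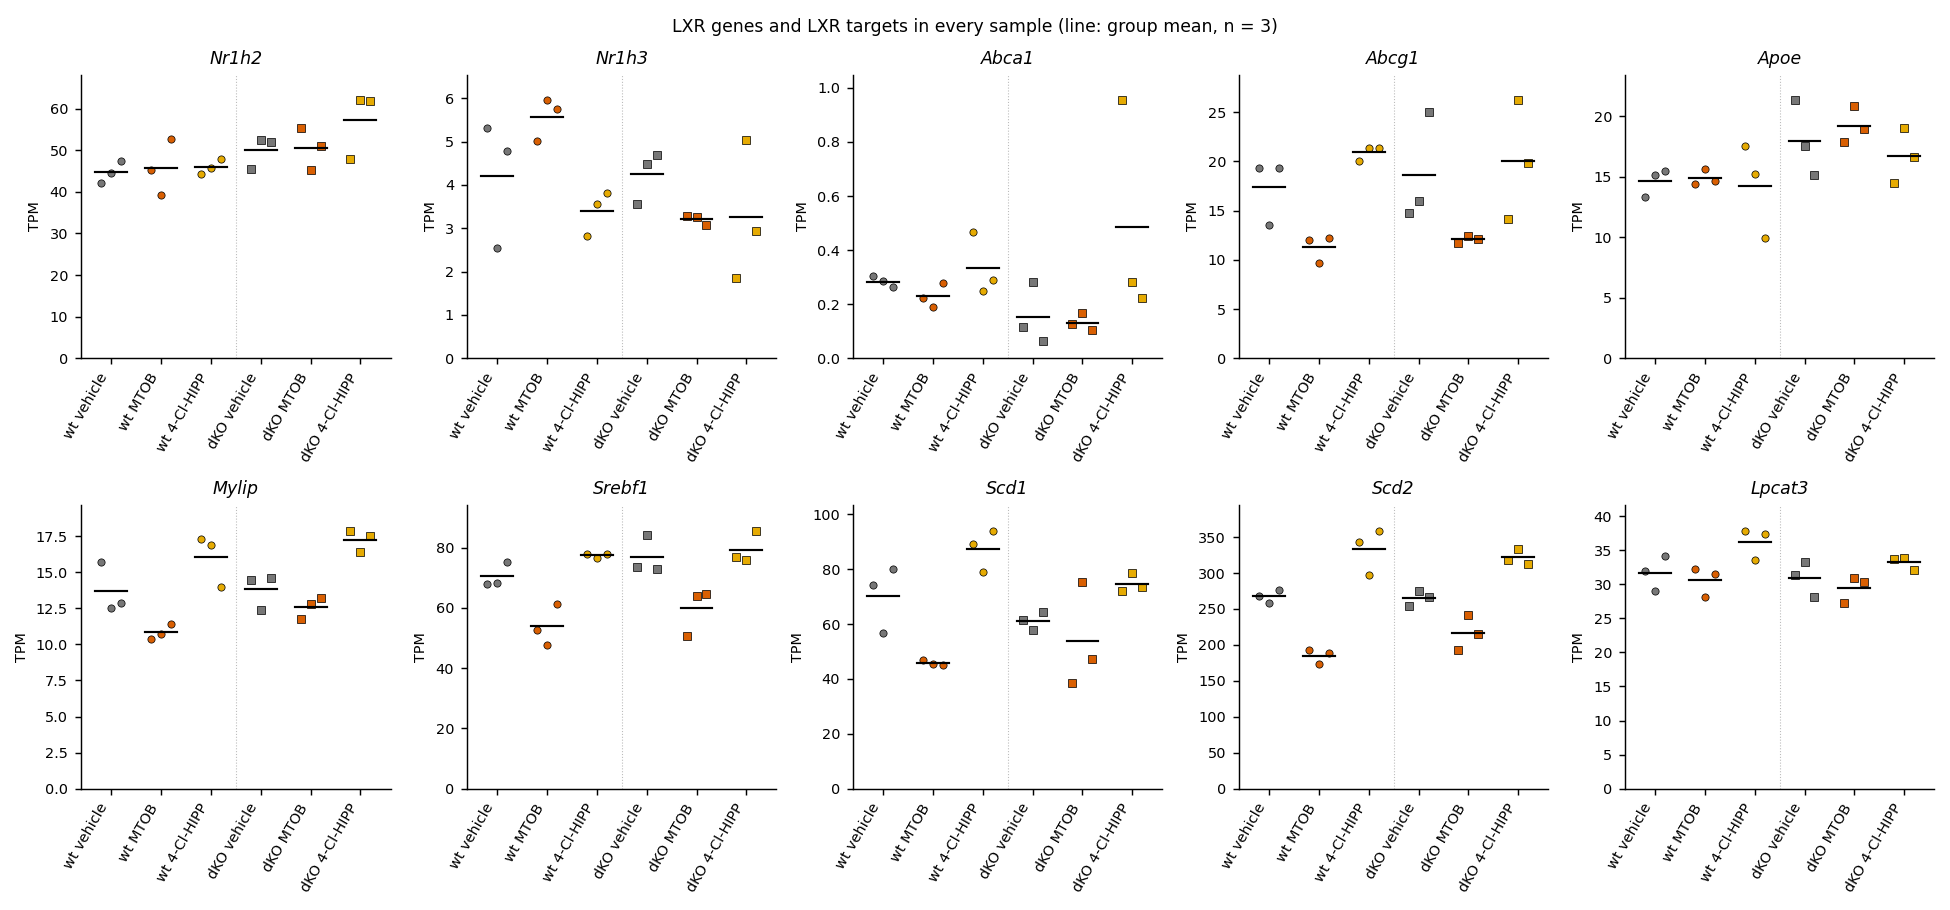
TPM of the 10 genes in each of the 18 samples, by genotype and treatment; circles are wildtype samples, squares are dKO samples, colours mark the treatment, and horizontal lines are means of 3 samples. Scd2 stood at 173 to 193 TPM in wildtype MTOB and at 258 to 277 TPM in wildtype vehicle, while Abca1 stayed below 1 TPM in every sample.

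MTOB lowered a pair of these genes in each genotype, Scd2 and Srebf1, while 4-Cl-HIPP moved none of the 10 past the test. In wildtype, 0 of 10 genes rose and 2 of 10 fell with MTOB, where limma called 7.26% of all genes tested, 3.80% higher and 3.46% lower. At unadjusted p below 0.05 limma gave 5 genes, all 5 of them lower, and 3008 of all 16383 genes. In dKO, 0 rose and 2 fell with MTOB, against 6.58% of all genes, 3.04% higher and 3.54% lower, and 3 genes had an unadjusted p below 0.05, against 3118 of all genes. With 4-Cl-HIPP in wildtype limma called 0 of 10, against 0.366% of all genes (0.324% higher, 0.0427% lower), and 3 genes, all higher, had an unadjusted p below 0.05, against 1341 of all genes. In dKO limma likewise called 0 of 10 with 4-Cl-HIPP, against 0.501% of all genes (0.403% higher, 0.0977% lower), with 2 genes, both higher, at an unadjusted p below 0.05, against 1388 of all genes.

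Fitted changes of the 10 genes lay mostly below 0 with MTOB and mostly above 0 with 4-Cl-HIPP. The median log2 fold change of the 10 was −0.18 with MTOB in wildtype and −0.18 in dKO, where the median of all genes tested was −0.01 in each. For 4-Cl-HIPP the median of the 10 was 0.16 in wildtype and 0.14 in dKO, where that of all genes was 0.01 and 0.00. Fitted changes were above 0 for 3 genes and below 0 for 7 with MTOB in wildtype, and for 2 and 8 in dKO. For 4-Cl-HIPP, 8 were above 0 and 2 below in each genotype. These counts describe the 10 genes, and the comparisons of the inhibitors within a genotype share vehicle samples. Some signs turned when 1 sample was left out. With MTOB these were the signs of Nr1h2, Apoe and Lpcat3 in wildtype and of Nr1h2, Abca1 and Apoe in dKO. With 4-Cl-HIPP they were those of Abca1 and Apoe in wildtype and of Abcg1, Srebf1 and Apoe in dKO.

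Separation of the samples was counted as well. The 3 MTOB samples lay below the 3 vehicle samples without overlap for 5 genes in wildtype (Abcg1, Mylip, Scd1, Scd2 and Srebf1), and 12.0% of all genes separated in that direction. In dKO this held for 4 genes (Nr1h3, Abcg1, Scd2 and Srebf1), against 11.5% of all genes. With 4-Cl-HIPP the samples lay above vehicle for 3 genes in wildtype (Abcg1, Scd2 and Srebf1), against 7.65%, and for 3 in dKO (Mylip, Scd1 and Scd2), against 8.01%.

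**Figure D2:**
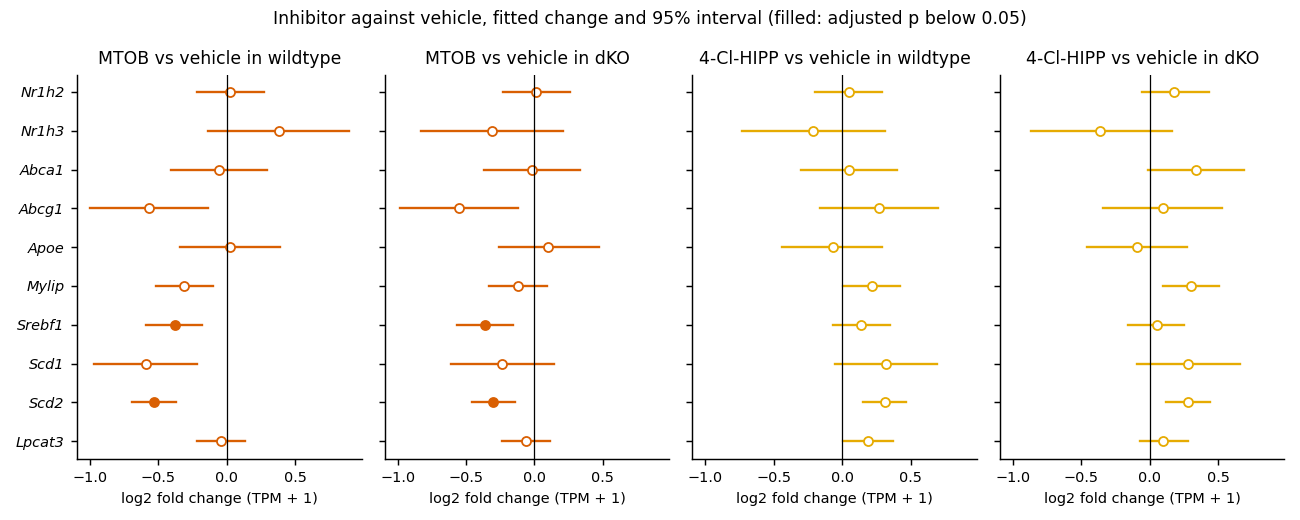
Fitted log2 fold change of each of the 10 genes against vehicle, with its 95% confidence interval, for MTOB and 4-Cl-HIPP in wildtype and dKO cells; filled points passed the test at an adjusted p below 0.05. Filled points are seen for Scd2 and Srebf1 with MTOB, at −0.53 and −0.38 in wildtype and at −0.30 and −0.36 in dKO.

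Scd2 encodes a stearoyl-CoA desaturase, which places a double bond in saturated fatty acids. In wildtype its level was 268, 258 and 277 TPM with vehicle, 193, 173 and 189 TPM with MTOB, and 343, 297 and 359 TPM with 4-Cl-HIPP. In dKO it was 254, 275 and 267 TPM with vehicle, 193, 241 and 215 TPM with MTOB, and 318, 334 and 313 TPM with 4-Cl-HIPP. In both genotypes every MTOB sample lay below every vehicle sample and every 4-Cl-HIPP sample lay above every vehicle sample. Ordered by mean, wildtype MTOB (185 ± 10.4 TPM) and dKO MTOB (216 ± 24.0 TPM) were lowest, and every wildtype sample of this pair lay below every dKO sample, if only just. The vehicle groups overlapped (dKO 265 ± 10.9, wildtype 267 ± 9.44 TPM), as did the highest groups (dKO 4-Cl-HIPP 322 ± 11.1, wildtype 4-Cl-HIPP 333 ± 32.1 TPM).

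Scd2 fell with MTOB by 0.53 in wildtype (SE 0.08, 95% interval −0.69 to −0.37, adjusted p = 0.000320 by limma), lower in 3 of 3 samples. That call was kept under every alternative tried, with adjusted p from 6.26e-05 to 0.0109. In dKO it fell by 0.30 (SE 0.08, interval −0.46 to −0.14, adjusted p = 0.0258 by limma), lower in 3 of 3 samples. The dKO call was lost without a variance trend (adjusted p = 0.0565) and when other groups were left out of the fit (adjusted p = 0.185, the largest over the alternatives, which began at 0.00365). It was also lost without dKO vehicle replicate 2 (0.101) or 3 (0.0768), and without dKO MTOB replicate 1 (0.110) or 3 (0.0664). With 4-Cl-HIPP Scd2 differed by 0.31 in wildtype (interval 0.15 to 0.47, adjusted p = 0.122 by limma) and by 0.28 in dKO (interval 0.12 to 0.44, adjusted p = 0.163), neither of which passed. Each passed with a replicate block (adjusted p = 0.0279 and 0.0400 by limma, in ranges up to 0.388 and 0.406), although same-numbered samples were not alike beyond their groups.

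Srebf1 encodes SREBP1, the transcription factor that turns on fatty acid synthesis genes, the desaturases among them. In wildtype it measured 67.8, 68.3 and 75.1 TPM with vehicle, 52.7, 47.8 and 61.3 TPM with MTOB, and 78.0, 76.4 and 78.0 TPM with 4-Cl-HIPP. The dKO samples measured 73.5, 84.1 and 73.0 TPM with vehicle, 50.7, 63.9 and 64.7 TPM with MTOB, and 76.7, 75.7 and 85.6 TPM with 4-Cl-HIPP. The MTOB groups were lowest and overlapped each other (wildtype 54.0 ± 6.84, dKO 59.8 ± 7.82 TPM), and a gap separated them from wildtype vehicle (70.4 ± 4.10 TPM). From there upward each group overlapped the next: dKO vehicle (76.9 ± 6.29 TPM), wildtype 4-Cl-HIPP (77.5 ± 0.903 TPM) and dKO 4-Cl-HIPP (79.4 ± 5.47 TPM).

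Srebf1 fell with MTOB by 0.38 in wildtype (SE 0.10, interval −0.59 to −0.18, adjusted p = 0.0245 by limma) and by 0.36 in dKO (SE 0.10, interval −0.57 to −0.16, adjusted p = 0.0361), lower in 3 of 3 samples each time. Both calls were lost when certain single libraries were left out. Over the fits without 1 sample the change ran from −0.48 to −0.30 in wildtype and from −0.42 to −0.25 in dKO. In wildtype the adjusted p by limma rose to 0.0535 without wildtype vehicle replicate 2, 0.105 without replicate 3, 0.0804 without wildtype MTOB replicate 1 and 0.119 without replicate 2. In dKO it rose to 0.0598, 0.154 and 0.0588 without dKO vehicle replicates 1, 2 and 3, and to 0.144 without dKO MTOB replicate 1. When other groups were left out of the fit the adjusted p was 0.124 in wildtype and 0.217 in dKO, and in dKO it was 0.0589 without a variance trend, within ranges over all alternatives that began at 0.00801 and 0.0192. With 4-Cl-HIPP the differences were 0.14 in wildtype and 0.05 in dKO (adjusted p = 0.820 and 0.959 by limma). Exons of Srebf1 overlap those of Rai1 on the opposite strand (mean 33.1 TPM), and an unstranded library cannot assign reads from that overlap.

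Scd1 encodes a second stearoyl-CoA desaturase. Its wildtype values were 74.2, 56.8 and 80.0 TPM with vehicle, 46.9, 45.4 and 45.0 TPM with MTOB, and 89.3, 78.9 and 94.1 TPM with 4-Cl-HIPP. Its dKO values were 61.6, 57.8 and 64.4 TPM with vehicle, 38.5, 75.5 and 47.4 TPM with MTOB, and 72.2, 78.6 and 73.4 TPM with 4-Cl-HIPP. All wildtype MTOB samples lay below wildtype vehicle, whereas in dKO MTOB replicate 2, at 75.5 TPM, lay above every dKO vehicle sample. By mean the order was wildtype MTOB (45.8 ± 0.976 TPM), dKO MTOB (53.8 ± 19.3), dKO vehicle (61.3 ± 3.30), wildtype vehicle (70.4 ± 12.1), dKO 4-Cl-HIPP (74.7 ± 3.44) and wildtype 4-Cl-HIPP (87.4 ± 7.76 TPM). Each group overlapped the next except at the top, where wildtype 4-Cl-HIPP was clear of dKO 4-Cl-HIPP but overlapped wildtype vehicle.

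With MTOB in wildtype Scd1 differed by −0.59 (SE 0.18, interval −0.97 to −0.22, adjusted p = 0.0545 by limma), larger in size than for Scd2 but with more spread, and did not pass. Over the alternatives its adjusted p ran from 0.00375 to 0.198. It passed with a pseudocount of 0.1 (0.0449), with a filter at a mean normalized count of 10 (0.0282), and without wildtype vehicle replicate 2 (0.0310), dKO MTOB replicate 1 (0.0186) or dKO MTOB replicate 2 (0.00375). In dKO the MTOB difference was −0.24 (adjusted p = 0.532 by limma), while it was −0.51 without dKO MTOB replicate 2 (adjusted p = 0.0252) and −0.03 without dKO MTOB replicate 1 (adjusted p = 0.973). The 4-Cl-HIPP differences were 0.32 in wildtype and 0.28 in dKO (adjusted p = 0.723 and 0.730 by limma). The wildtype one was 0.18 without wildtype vehicle replicate 2. Replicate 1 of dKO MTOB was the lowest of its group for Scd1, Scd2 and Srebf1, and of the 18 samples it had the lowest sum of macrophage markers (2216 TPM, against 2476 and 2529 TPM in its group) and the lowest median-ratio factor (0.966).

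Lpcat3 encodes an acyltransferase that loads polyunsaturated fatty acids into phospholipids. It was the steadiest of these lipid genes, between 27.2 and 37.9 TPM over all 18 samples, with group means from 29.5 ± 2.02 TPM in dKO MTOB to 36.3 ± 2.36 TPM in wildtype 4-Cl-HIPP. All neighbouring groups in that order overlapped. Its changes were −0.04 and −0.06 with MTOB and 0.19 and 0.10 with 4-Cl-HIPP, in wildtype and dKO in turn, with adjusted p by limma from 0.554 to 0.861. Lpcat3 exons overlap those of Emg1 on the opposite strand, whose mean was 290 TPM.

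The efflux genes gave no call with either inhibitor. Abcg1 encodes a half-transporter that passes cholesterol to high-density lipoprotein. Its wildtype values were 19.3, 13.5 and 19.3 TPM with vehicle, 12.0, 9.71 and 12.2 TPM with MTOB, and 20.0, 21.4 and 21.4 TPM with 4-Cl-HIPP. In dKO the values were 14.8, 16.0 and 25.0 TPM with vehicle, 11.7, 12.4 and 12.1 TPM with MTOB, and 14.1, 26.2 and 19.8 TPM with 4-Cl-HIPP. The MTOB groups (wildtype 11.3 ± 1.38, dKO 12.1 ± 0.347 TPM) overlapped each other and lay clear of wildtype vehicle (17.4 ± 3.34 TPM). Above it dKO vehicle (18.6 ± 5.57), dKO 4-Cl-HIPP (20.0 ± 6.03) and wildtype 4-Cl-HIPP (20.9 ± 0.848 TPM) all overlapped. The MTOB differences were −0.57 in wildtype (SE 0.20, adjusted p = 0.117 by limma) and −0.55 in dKO (SE 0.20, adjusted p = 0.134), and neither passed although 3 of 3 samples were lower each time. With 4-Cl-HIPP they were 0.27 and 0.10 (adjusted p = 0.835 and 0.960 by limma). Leaving out single samples moved these values. The MTOB difference in dKO was −0.33 without dKO vehicle replicate 3. The 4-Cl-HIPP difference was 0.11 in wildtype without wildtype vehicle replicate 2. In dKO it was −0.11 without dKO 4-Cl-HIPP replicate 2 and 0.32 without dKO vehicle replicate 3.

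Abca1, the transporter that loads lipid-poor apolipoprotein A-I with cholesterol, was barely detected, with a mean normalized count of 12.2. Wildtype samples measured 0.303, 0.284 and 0.262 TPM with vehicle, 0.223, 0.189 and 0.279 TPM with MTOB, and 0.467, 0.247 and 0.289 TPM with 4-Cl-HIPP. The dKO samples measured 0.115, 0.281 and 0.0649 TPM with vehicle, 0.126, 0.167 and 0.103 TPM with MTOB, and 0.954, 0.283 and 0.222 TPM with 4-Cl-HIPP. All neighbouring groups overlapped, from dKO MTOB (0.132 ± 0.0325 TPM) to dKO 4-Cl-HIPP (0.486 ± 0.406 TPM). In dKO mean TPM with 4-Cl-HIPP was 3.16 times that with vehicle, carried by replicate 1 at 0.954 TPM, and the fitted change was 0.34 (interval −0.01 to 0.69, adjusted p = 0.610 by limma). It was 1.09 with a pseudocount of 0.1, 0.09 with a pseudocount of 5 and 0.12 without dKO 4-Cl-HIPP replicate 1. For the other inhibitor comparisons the fitted changes of Abca1 ran from −0.06 to 0.05.

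Apoe encodes apolipoprotein E, a lipid acceptor that macrophages secrete. It measured 13.3, 15.1 and 15.5 TPM in wildtype vehicle, 14.4, 15.6 and 14.6 TPM in wildtype MTOB, and 17.5, 15.2 and 9.90 TPM in wildtype 4-Cl-HIPP. In dKO it measured 21.3, 17.5 and 15.1 TPM with vehicle, 17.9, 20.8 and 18.9 TPM with MTOB, and 14.5, 19.0 and 16.6 TPM with 4-Cl-HIPP. The dKO groups had the highest means (16.7 ± 2.28 to 19.2 ± 1.50 TPM) and the wildtype groups the lowest (14.2 ± 3.88 to 14.9 ± 0.610 TPM), but every neighbouring pair overlapped. Inhibitor changes were between −0.09 and 0.10.

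Mylip encodes IDOL, a ubiquitin ligase that limits the uptake of lipoprotein cholesterol. Its values in wildtype were 15.7, 12.5 and 12.9 TPM with vehicle, 10.4, 10.7 and 11.4 TPM with MTOB, and 17.3, 16.9 and 14.0 TPM with 4-Cl-HIPP. Values in dKO were 14.5, 12.4 and 14.6 TPM with vehicle, 11.8, 12.8 and 13.2 TPM with MTOB, and 17.9, 16.4 and 17.5 TPM with 4-Cl-HIPP. Wildtype MTOB was lowest (10.8 ± 0.535 TPM) and clear of the next group, dKO MTOB (12.6 ± 0.684 TPM), while the rest overlapped in order up to dKO 4-Cl-HIPP (17.3 ± 0.774 TPM). With MTOB the difference was −0.31 in wildtype (SE 0.10, adjusted p = 0.0733 by limma) and −0.12 in dKO (adjusted p = 0.571). With 4-Cl-HIPP it was 0.22 in wildtype (adjusted p = 0.583 by limma) and 0.30 in dKO (adjusted p = 0.292), so none of the changes of Mylip passed.

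The receptor genes were not called in any inhibitor comparison. Nr1h2 measured 42.2, 44.5 and 47.3 TPM in wildtype vehicle, 45.2, 39.3 and 52.6 TPM in wildtype MTOB, and 44.4, 45.8 and 48.0 TPM in wildtype 4-Cl-HIPP. In dKO Nr1h2 measured 45.5, 52.5 and 52.1 TPM with vehicle, 55.3, 45.3 and 51.0 TPM with MTOB, and 48.0, 62.0 and 61.9 TPM with 4-Cl-HIPP. Its group means ran from 44.7 ± 2.56 TPM in wildtype vehicle to 57.3 ± 8.07 TPM in dKO 4-Cl-HIPP, and all neighbours in that order overlapped. Inhibitor changes of Nr1h2 were from 0.01 to 0.18.

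Nr1h3 was low and scattered. In wildtype it measured 5.32, 2.54 and 4.77 TPM with vehicle, 5.02, 5.95 and 5.76 TPM with MTOB, and 2.81, 3.55 and 3.82 TPM with 4-Cl-HIPP. In dKO it measured 3.55, 4.48 and 4.69 TPM with vehicle, 3.28, 3.27 and 3.08 TPM with MTOB, and 1.85, 5.03 and 2.93 TPM with 4-Cl-HIPP. Wildtype MTOB was the highest group (5.58 ± 0.496 TPM) and lay clear of dKO vehicle (4.24 ± 0.606 TPM), the next in order. The lower groups overlapped from dKO MTOB (3.21 ± 0.111 TPM) upward. Its MTOB change was 0.38 in wildtype (SE 0.24, adjusted p = 0.471 by limma) and −0.31 in dKO (SE 0.24, adjusted p = 0.566). The wildtype change was 0.12 without wildtype vehicle replicate 2, which was at 2.54 TPM. Exons of Nr1h3 overlap those of Acp2 on the opposite strand, and Acp2, at a mean of 12.0 TPM, was more abundant than Nr1h3.

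Deletion of the CtBPs gave no call among the 10 genes under any treatment. Under vehicle limma called 0 of 10 between dKO and wildtype, against 10.7% of all genes tested (7.01% higher and 3.72% lower in dKO), and 0 of 10 had an unadjusted p below 0.05, against 3502 of all 16383 genes. The smallest adjusted p was 0.428, for Apoe, whose difference was 0.27 (interval −0.10 to 0.63). Under MTOB limma called 0 of 10, against 11.2% of all genes (6.98% higher, 4.18% lower), and 2 genes had an unadjusted p below 0.05, against 3671 of all genes. These were Scd2, at 0.22 (interval 0.06 to 0.38, adjusted p = 0.0836 by limma), and Nr1h3, at −0.64 (interval −1.16 to −0.12, adjusted p = 0.118). Under 4-Cl-HIPP limma called 0 of 10, against 10.2% of all genes (6.60% higher, 3.63% lower), and 1 gene had an unadjusted p below 0.05, against 3451 of all genes. This was Nr1h2, at 0.30 (interval 0.06 to 0.54, adjusted p = 0.129 by limma). Apoe was above wildtype in mean in each treatment, at 0.27, 0.35 and 0.25 under vehicle, MTOB and 4-Cl-HIPP (adjusted p = 0.428, 0.246 and 0.479 by limma). Single samples carried much of this. The difference was 0.14 under vehicle without dKO vehicle replicate 1, and 0.02 under 4-Cl-HIPP without wildtype 4-Cl-HIPP replicate 3. Under MTOB it stayed between 0.29 and 0.40 when single samples were left out.

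Some genotype groups lay apart all the same. Under MTOB the dKO samples lay above the wildtype samples without overlap for 3 of the 10 genes (Mylip, Apoe and Scd2), against 13.4% of all genes, and below them for 2 (Nr1h3 and Abca1), against 10.1%. Under 4-Cl-HIPP they lay below for 1 gene, Scd1, against 10.8%, and above for 0, against 14.4%. Under vehicle 0 of the 10 lay apart in either direction, against 15.1% of all genes higher and 11.0% lower.

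Some of these genotype differences passed when a library or a setting was changed. Scd2 under MTOB passed without wildtype 4-Cl-HIPP replicate 2 (adjusted p = 0.0471 by limma) and without dKO MTOB replicate 1 (0.0166), in a range over alternatives from 0.0122 to 0.316. Nr1h3 under MTOB passed when other groups were left out of the fit (0.0311), in a range up to 0.252. Nr1h2 under 4-Cl-HIPP was 0.42 with an adjusted p of 0.0290 by limma without dKO 4-Cl-HIPP replicate 1, in a range up to 0.345.

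Whether the MTOB effect itself differed by genotype was tested as an interaction. For MTOB limma called 0 of 10 genes, against 0.0916% of all genes, and 1 gene had an unadjusted p below 0.05, against 1128 of all 16383 genes. That gene was Scd2, whose MTOB difference was less negative in dKO by 0.23 (interval 0.00 to 0.46, adjusted p = 0.723 by limma), which did not pass. The largest interaction in size was that of Nr1h3, at −0.68 (interval −1.42 to 0.05, adjusted p = 0.747 by limma). For 4-Cl-HIPP limma called 0 of 10 genes, against 0% of all genes, and 0 of 10 had an unadjusted p below 0.05, against 734 of all genes. Srebf1 and Abcg1 had MTOB interactions of 0.02 and 0.02 (intervals −0.27 to 0.31 and −0.59 to 0.63).

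The 10 genes lie on 8 chromosomes in GRCm39, and all are protein-coding. On the plus strand are Scd2 (chr19:44281613-44295303), Abcg1 (chr17:31276649-31336969), Mylip (chr13:45543215-45565501) and Lpcat3 (chr6:124639765-124684440). On the minus strand are Scd1 (chr19:44382894-44399154), Srebf1 (chr11:60089913-60113407), Abca1 (chr4:53030787-53159900), Apoe (chr7:19430034-19434947), Nr1h2 (chr7:44199036-44203406) and Nr1h3 (chr2:91014394-91033417). Scd1 and Scd2 are 87590 bases apart and point in opposite directions. Of 7326 different 31-base words in Scd1 transcripts, 253 (3.45%) also occur in Scd2, so reads from those stretches could be assigned to either, while Nr1h2 and Nr1h3 share 0 such words.

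Promoter windows from 250 bases before to 50 bases after annotated starts were taken from RefSeq (GRCm38.p6) and matched 7 of the 10 genes, with 12 windows. Abcg1, Scd1 and Scd2 were not matched. LXR with its partner binds a repeat of the half-site AGGTCA with 4 bases between. The exact letters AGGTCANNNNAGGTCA, on either strand, were in 5 of 32851 promoters (0.0152%) and in no window of these genes. That search took only the exact letters, so it would miss variant forms, and no lack of LXR sites follows from it. The longest words shared, on either strand, between windows of different genes of the 10 had 13 letters. TAGTAACCCCGGC was shared by Abca1 and 1 of 3 Srebf1 windows and was in 3 of 32851 promoters (0.00913%), and CCCCGCCCCTCCG was shared by Mylip and a Srebf1 window and was in 50 of 32851 (0.152%). These words were found in the promoters themselves, so their presence there is a description. Read on the strand opposite to that printed, both windows with the rarer word also hold GGGTTA and CGGTCA with 4 bases between, close to the LXR repeat. In Abca1 this stretch overlaps the rarer word, and in Srebf1 such a stretch lies before the word as printed. Binding of LXR was not measured here. Srebf1 fell with MTOB while Abca1, which holds the same rarer word, did not pass. Abca1 averaged 0.270 TPM, where the log2(TPM + 1) scale understates changes, so no contrast is drawn between these genes. The windows with the rarer word are shown. Both read 5′ to 3′ on the minus strand of GRCm38.p6, Abca1 from chr4:53159846-53160145 with the word from base 191 of 300, and Srebf1 from chr11:60210422-60210721 with the word from base 127 of 300, and capitals mark the word.
Abca1: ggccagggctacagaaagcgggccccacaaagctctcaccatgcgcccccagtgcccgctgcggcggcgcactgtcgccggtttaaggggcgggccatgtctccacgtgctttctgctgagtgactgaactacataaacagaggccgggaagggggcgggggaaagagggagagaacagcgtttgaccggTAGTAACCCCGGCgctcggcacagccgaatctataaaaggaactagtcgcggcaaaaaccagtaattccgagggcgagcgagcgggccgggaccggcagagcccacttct
Srebf1: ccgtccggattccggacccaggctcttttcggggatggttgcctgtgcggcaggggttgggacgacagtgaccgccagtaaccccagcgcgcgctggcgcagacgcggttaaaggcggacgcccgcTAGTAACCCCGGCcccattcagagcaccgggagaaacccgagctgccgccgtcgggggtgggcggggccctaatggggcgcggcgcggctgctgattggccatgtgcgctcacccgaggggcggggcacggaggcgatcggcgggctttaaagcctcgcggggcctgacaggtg

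Likeness of expression was described by Pearson r of log2(TPM + 1) over the 18 samples, which share the genotype and treatment differences. Closest to Scd2 were Ctdsp2 (0.959), Trp53i11 (0.957) and B4galt7 (0.954), and closest to Srebf1 were Tbc1d16 (0.929), Trappc12 (0.928) and Esco2 (0.922). Abcg1 was most like Pnisr (0.900), Nsmce4a (0.890) and Idh3g (0.868). Apoe was most like Cdin1 (0.791), Chmp2b (0.789) and Orai2 (0.787), and Abca1 most like Gm10516 (0.836), Celsr2 (0.824) and Mapt (0.818), which never exceeded 1.46 TPM. Within the 10 genes r was highest between Scd1 and Scd2 (0.905) and between Scd2 and Srebf1 (0.887), while Apoe and Scd2 had an r of −0.194. The lowest values were between Nr1h3 and Mylip (−0.485) and between Nr1h3 and Abca1 (−0.445).

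Of 15 other genes known to respond to LXR, 11 were listed and tested, and Mertk, Apoc1, Apoc4 and Cd5l were not listed in the table. With MTOB in wildtype 1 rose and 1 fell (3.80% and 3.46% of all genes tested), and in dKO 1 rose and 3 fell (3.04% and 3.54% of all genes). With 4-Cl-HIPP 3 rose and 0 fell in wildtype (0.324% and 0.0427% of all genes), and 2 rose and 0 fell in dKO (0.403% and 0.0977%). At unadjusted p below 0.05 limma gave 6 and 5 of the 11, against 1341 and 1388 of all 16383 genes. Between the genotypes 5 were higher and 0 lower in dKO under vehicle (7.01% and 3.72% of all genes), 4 higher and 1 lower under MTOB (6.98% and 4.18%), and 4 higher and 2 lower under 4-Cl-HIPP (6.60% and 3.63%).

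The genes of this list that fell with MTOB are named here after their values were seen. In dKO they were the fatty acid synthase gene Fasn (−0.43), the acyl-CoA synthetase gene Acsl3 (−0.37) and the phospholipid transfer protein gene Pltp (−0.31, adjusted p = 0.00679, 0.00995 and 0.0281 by limma). The Fasn call was lost when other groups were left out of the fit (0.179), the Acsl3 call without dKO vehicle replicate 2 (0.0503), and the Pltp call when other groups were left out of the fit (0.218), and without dKO vehicle replicate 2 (0.108) or 3 (0.0745) or dKO MTOB replicate 1 (0.101) or 3 (0.111). In wildtype it was Fads2 (−0.15, adjusted p = 0.0414 by limma), a call lost with median-ratio scaling (0.0667), without a variance trend (0.125), with a replicate block (0.0778), when other groups were left out of the fit (0.126), and without wildtype vehicle replicate 1 (0.0803), 2 (0.0665) or 3 (0.154), wildtype MTOB replicate 1 (0.0620) or 2 (0.180), dKO vehicle replicate 2 (0.0546), dKO MTOB replicate 3 (0.0522) or dKO 4-Cl-HIPP replicate 1 (0.0524). Lpl, Pltp, Fads1 and Fads2 were higher in dKO under all 3 treatments, with Apoc2 as the 5th under vehicle. Acsl3 was lower in dKO under MTOB and 4-Cl-HIPP (−0.33 and −0.31, adjusted p = 0.0116 and 0.0177 by limma), and Arl4c under 4-Cl-HIPP (−0.77, adjusted p = 0.000772). The Pltp call under MTOB (0.31, adjusted p = 0.0177 by limma) was lost when other groups were left out of the fit (0.183), and without wildtype MTOB replicate 1 (0.0800) or dKO MTOB replicate 2 (0.0782), the Acsl3 call under MTOB when other groups were left out of the fit (0.0563), and without wildtype MTOB replicate 3 (0.0548), and that under 4-Cl-HIPP when other groups were left out of the fit (0.0793), and without wildtype 4-Cl-HIPP replicate 1 (0.0878) or 3 (0.0603) or dKO 4-Cl-HIPP replicate 1 (0.0862).

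Lpl, the gene of lipoprotein lipase, was the one that rose with MTOB in each genotype. It measured 132, 139 and 130 TPM in wildtype vehicle, 218, 203 and 197 TPM in wildtype MTOB, and 110, 119 and 115 TPM in wildtype 4-Cl-HIPP. In dKO it measured 255, 251 and 247 TPM with vehicle, 374, 436 and 440 TPM with MTOB, and 202, 220 and 206 TPM with 4-Cl-HIPP. None of these groups overlapped within a genotype, and the highest wildtype sample with vehicle lay below every dKO sample. Lpl rose with MTOB by 0.62 in wildtype and 0.72 in dKO (adjusted p = 4.76e-06 and 1.05e-06 by limma) and was higher by 0.91 in dKO under vehicle (adjusted p = 3.15e-08). Its direction with MTOB was opposite to that of Scd2 and Srebf1, and it was called under every alternative tried.

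Arl4c, a small GTPase gene, showed the largest 4-Cl-HIPP difference in this list. It measured 0.308, 0.229 and 0.205 TPM in wildtype vehicle, 0.231, 0.247 and 0.180 TPM in wildtype MTOB, and 1.67, 1.59 and 1.28 TPM in wildtype 4-Cl-HIPP. In dKO it measured 0.0559, 0.231 and 0.250 TPM with vehicle, 0, 0.206 and 0.0597 TPM with MTOB, and 0.515, 0.394 and 0.509 TPM with 4-Cl-HIPP. Each 4-Cl-HIPP sample lay above every other sample of its genotype. Arl4c rose by 1.01 in wildtype (adjusted p = 0.00229 by limma, and 0.0988 when other groups were left out of the fit, in a range from 7.77e-05). The fitted change was 2.22 with a pseudocount of 0.1 and 0.31 with a pseudocount of 5. In dKO it differed by 0.32 (adjusted p = 0.469 by limma), and the interaction was −0.69 (adjusted p = 0.830). Its mean normalized count was 7.17, and mean TPM was 6.13 times vehicle in wildtype and 2.64 times vehicle in dKO, which the log2(TPM + 1) scale understates.

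The fatty acid desaturase genes Fads1 and Fads2, named here after their values were seen, were the others that rose with 4-Cl-HIPP. Fads1 rose by 0.30 in wildtype and 0.26 in dKO (adjusted p = 0.00555 and 0.0106 by limma), and Fads2 by 0.33 and 0.36 (adjusted p = 0.00251 and 0.00136). When other groups were left out of the fit the adjusted p of Fads2 was 0.140 and 0.0795, the largest over its alternatives, which began at 0.00127 and 0.000500. The dKO call of Fads1 was lost under several alternatives (adjusted p from 0.00426 to 0.241): without a variance trend (0.0596), when other groups were left out of the fit (0.241), and without dKO vehicle replicate 1 (0.0636) or dKO 4-Cl-HIPP replicate 1 (0.0669) or 3 (0.0592). Fads1 was also higher in dKO under vehicle by 0.54, and Fads2 by 0.37 (adjusted p = 3.93e-07 and 2.46e-05 by limma). Apoc2, an apolipoprotein gene, was listed at 0 in all 3 wildtype vehicle samples and at 1.16, 0.927 and 0.504 TPM in dKO vehicle (adjusted p = 0.0479 by limma, in a range from 0.00585). Its mean normalized count was 0.768, and its call was lost with a pseudocount of 5 (0.0607), without the filter on low values (0.0560), with median-ratio scaling (0.0504), without a variance trend (0.0583), and without wildtype vehicle replicate 1 (0.112), 2 (0.109) or 3 (0.111), wildtype MTOB replicate 2 (0.0565) or 3 (0.0564), wildtype 4-Cl-HIPP replicate 1 (0.0611), 2 (0.0614) or 3 (0.0611), dKO vehicle replicate 1 (0.164) or 2 (0.125) or dKO 4-Cl-HIPP replicate 2 (0.0557) or 3 (0.0551).

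**Figure D3:**
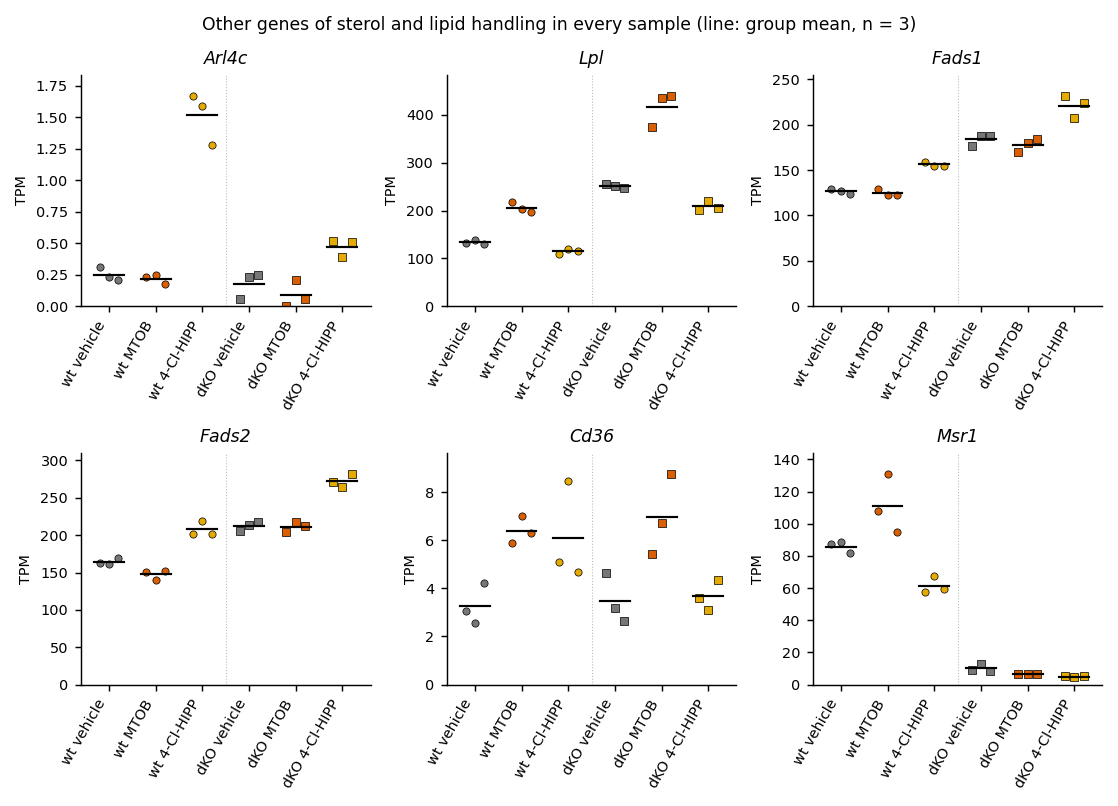
TPM of Arl4c, Lpl, Fads1, Fads2, Cd36 and Msr1 in each of the 18 samples; circles are wildtype samples, squares are dKO samples, colours mark the treatment, and horizontal lines are means of 3 samples. Msr1 was at 57.5 TPM or more in every wildtype sample and at 13.0 TPM or less in every dKO sample.

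The partners and coregulators of LXR were measured at 12 of 13 genes, Rxrg being not listed in the table. With MTOB 0 rose and 2 fell in wildtype (3.80% and 3.46% of all genes), and 0 rose and 2 fell in dKO (3.04% and 3.54%). In both cases these were the retinoid X receptor gene Rxrb (−0.31 and −0.29, adjusted p = 0.00266 and 0.00465 by limma) and the coactivator gene Ncoa3 (−0.34 and −0.40, adjusted p = 0.00817 and 0.00294), chosen for naming after their values were seen. The dKO call of Ncoa3 was lost when other groups were left out of the fit (0.102, in a range from 0.000506). With 4-Cl-HIPP limma called 0 of 12 in wildtype and 0 of 12 in dKO (0.366% and 0.501% of all genes), and 0 had an unadjusted p below 0.05 in each, against 1341 and 1388 of all genes. Between the genotypes 1 was higher and 1 lower in dKO under vehicle (7.01% and 3.72% of all genes), and 1 was lower under 4-Cl-HIPP (3.63%). The higher gene, also named after its value was seen, was the corepressor gene Nrip1 (0.51, adjusted p = 0.00987 by limma), a call lost when other groups were left out of the fit (0.0584), and without wildtype vehicle replicate 1 (0.0566). The lower gene under vehicle was Rxra (−0.59, adjusted p = 0.0331 by limma), a call with an adjusted p from 0.00355 to 0.177 over the alternatives. It was lost when other groups were left out of the fit (0.177), and without wildtype vehicle replicate 1 (0.162) or 2 (0.101) or dKO vehicle replicate 1 (0.109) or 2 (0.0953). Rxra was also the lower gene under 4-Cl-HIPP (−0.55, adjusted p = 0.0497 by limma), a call lost with a pseudocount of 5 (0.0696), without the filter on low values (0.0533), with a replicate block (0.0575), when other groups were left out of the fit (0.0909), and without wildtype vehicle replicate 2 (0.0620), wildtype MTOB replicate 1 (0.0637) or 3 (0.0538), wildtype 4-Cl-HIPP replicate 1 (0.179), 2 (0.0516) or 3 (0.109), dKO vehicle replicate 1 (0.0613), 2 (0.0625) or 3 (0.0578), dKO MTOB replicate 1 (0.0563), 2 (0.0613) or 3 (0.0586) or dKO 4-Cl-HIPP replicate 1 (0.177) or 3 (0.124).

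The machinery that releases SREBP proteins from membranes was measured at all 6 genes listed for it. With MTOB 2 fell in wildtype, Insig1 (−0.27) and Mbtps1 (−0.23, adjusted p = 0.0288 and 0.0335 by limma), named after their values were seen, where 3.46% of all genes were called lower. The Insig1 call was lost when other groups were left out of the fit (0.115), and without wildtype vehicle replicate 1 (0.102), 2 (0.0502) or 3 (0.0758) or wildtype MTOB replicate 1 (0.128) or 2 (0.0854), in a range from 0.0152. The Mbtps1 call was lost without a variance trend (0.0678), with a replicate block (0.0843), and without wildtype vehicle replicate 1 (0.0973), 2 (0.0810) or 3 (0.0776) or wildtype MTOB replicate 1 (0.134) or 2 (0.0705), in a range from 0.0142. Between the genotypes 1 was higher in dKO under vehicle, 2 under MTOB and 1 under 4-Cl-HIPP (7.01%, 6.98% and 6.60% of all genes), with 0 lower each time. Srebf2, the gene of SREBP2, named after its values were seen, was higher in all 3 (0.26, 0.24 and 0.21, adjusted p = 0.00487, 0.00916 and 0.0236 by limma), a call lost under MTOB when other groups were left out of the fit (0.0859), and without wildtype MTOB replicate 3 (0.0530), and lost under 4-Cl-HIPP without a variance trend (0.0613), with a replicate block (0.0675), when other groups were left out of the fit (0.160), and without wildtype 4-Cl-HIPP replicate 1 (0.0624) or 2 (0.120) or dKO 4-Cl-HIPP replicate 1 (0.0817) or 2 (0.0792). Insig1 was the other gene under MTOB (0.25, adjusted p = 0.0341 by limma), a call lost when other groups were left out of the fit (0.123), and without wildtype MTOB replicate 1 (0.154) or 2 (0.0919) or dKO MTOB replicate 1 (0.0832), 2 (0.0522) or 3 (0.0957). In dKO limma called 0 of 6 with MTOB (6.58% of all genes), and 2 had an unadjusted p below 0.05, against 3118 of all genes. With 4-Cl-HIPP it called 0 of 6 in each genotype (0.366% and 0.501% of all genes), with 3 at an unadjusted p below 0.05 in wildtype and 1 in dKO, against 1341 and 1388 of all genes.

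Genes of sterol uptake, storage and oxysterol synthesis were measured at 9 of 10, Ch25h being not listed in the table. With MTOB 2 rose and 0 fell in wildtype (3.80% and 3.46% of all genes), and 1 rose and 1 fell in dKO (3.04% and 3.54%). Cd36, a scavenger receptor gene, rose in both (0.80 and 0.83, adjusted p = 0.0390 and 0.0348 by limma), from 3.04, 2.56 and 4.24 TPM to 5.88, 7.02 and 6.29 TPM in wildtype and from 4.64, 3.18 and 2.64 TPM to 5.43, 6.72 and 8.76 TPM in dKO. The wildtype call was lost with a pseudocount of 5 (0.0505), with a replicate block (0.0879), when other groups were left out of the fit (0.0735), and without wildtype vehicle replicate 1 (0.108) or 2 (0.153), wildtype MTOB replicate 1 (0.0745), 2 (0.127) or 3 (0.0901) or dKO vehicle replicate 2 (0.0513), in a range from 0.0214. The dKO call was lost with a replicate block (0.0829), when other groups were left out of the fit (0.171), and without dKO vehicle replicate 2 (0.108) or 3 (0.144) or dKO MTOB replicate 2 (0.0731) or 3 (0.130), in a range from 0.0191. The other gene that rose with MTOB in wildtype was Npc1, at 0.30 (adjusted p = 0.0430 by limma, and from 0.0182 to 0.241 over the alternatives), named after its value was seen. Its call was lost without a variance trend (0.0638), with a replicate block (0.0635), when other groups were left out of the fit (0.241), and without wildtype vehicle replicate 1 (0.108) or 3 (0.184), wildtype MTOB replicate 2 (0.0648) or 3 (0.179), wildtype 4-Cl-HIPP replicate 1 (0.0532) or 3 (0.0520), dKO vehicle replicate 1 (0.0559) or 2 (0.0522), dKO MTOB replicate 2 (0.0528) or dKO 4-Cl-HIPP replicate 1 (0.0544), 2 (0.0555) or 3 (0.0550). With 4-Cl-HIPP 0 of 9 were called by limma in wildtype, against 0.366% of all genes (3 at an unadjusted p below 0.05, against 1341 of all genes), and in dKO 0 rose and 1 fell (0.403% and 0.0977% of all genes).

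The gene that fell in dKO with either inhibitor was the scavenger receptor gene Msr1, at −0.56 with MTOB and −0.85 with 4-Cl-HIPP (adjusted p = 0.0169 and 0.00652 by limma). In wildtype Msr1 differed by 0.36 with MTOB and −0.48 with 4-Cl-HIPP (adjusted p = 0.133 and 0.196 by limma), which did not pass, and the MTOB interaction was −0.91 (adjusted p = 0.114). The MTOB call in dKO was lost when other groups were left out of the fit (0.187), and without dKO vehicle replicate 2 (0.0606), in a range from 0.00864, and the 4-Cl-HIPP call was lost when other groups were left out of the fit (0.241), in a range from 0.00249. Msr1 was also lower in dKO, at 87.1, 88.4 and 81.8 TPM in wildtype vehicle and 8.94, 13.0 and 8.24 TPM in dKO vehicle (−3.00, adjusted p = 3.50e-10 by limma), with −3.91 under MTOB (adjusted p = 1.22e-11) and −3.37 under 4-Cl-HIPP (adjusted p = 8.03e-11). Nceh1, a cholesteryl ester hydrolase gene, was also lower in dKO under vehicle (−0.84, adjusted p = 0.000448 by limma). Cyp27a1, which encodes a sterol hydroxylase that makes an oxysterol, was higher in dKO under 4-Cl-HIPP (0.84, adjusted p = 0.0102 by limma, in a range from 0.00125), at 30.2, 32.0 and 20.3 TPM against 12.8, 14.8 and 16.4 TPM. That call was lost when other groups were left out of the fit (0.0712), and without wildtype 4-Cl-HIPP replicate 1 (0.0511) or dKO 4-Cl-HIPP replicate 2 (0.0542). Under vehicle 3 of the 9 were higher and 2 lower in dKO (7.01% and 3.72% of all genes), under MTOB 3 higher and 2 lower (6.98% and 4.18%), and under 4-Cl-HIPP 4 higher and 2 lower (6.60% and 3.63%). The 2 lower genes were Msr1 and Nceh1 each time, and the higher ones were Npc2, Soat1 and Lipa each time with Cyp27a1 added under 4-Cl-HIPP, all named after their values were seen. Mean TPM of Cyp27a1 in dKO was 1.87 times wildtype under 4-Cl-HIPP. It was also 1.52 times wildtype under vehicle and 1.53 times under MTOB, where it was not called. Under 4-Cl-HIPP the Nceh1 call (−0.63, adjusted p = 0.00533 by limma) was lost when other groups were left out of the fit (0.0660), and the Soat1 call (0.54, adjusted p = 0.000597) when other groups were left out of the fit (0.0578). The Lipa differences of 0.16, 0.18 and 0.16 (adjusted p = 0.0289, 0.0148 and 0.0310 by limma) were lost under vehicle without a variance trend (0.0910), when other groups were left out of the fit (0.109), and without wildtype vehicle replicate 1 (0.139) or 2 (0.0749) or dKO vehicle replicate 2 (0.126) or 3 (0.0607), under MTOB without a variance trend (0.0548), when other groups were left out of the fit (0.101), and without wildtype MTOB replicate 1 (0.0692) or 2 (0.0588) or dKO MTOB replicate 2 (0.0518) or 3 (0.0671), and under 4-Cl-HIPP without a variance trend (0.0960), when other groups were left out of the fit (0.0595), and without wildtype 4-Cl-HIPP replicate 1 (0.0802) or 2 (0.137) or dKO 4-Cl-HIPP replicate 1 (0.0928), 2 (0.0788) or 3 (0.0662). In the interactions limma called 0 genes of these 4 lists of other pathway genes (0.0916% of all genes for MTOB and 0% for 4-Cl-HIPP), and at most 2 genes of such a list had an unadjusted p below 0.05, against 1128 and 734 of all genes.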

How the data were processed

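RNA from 18 samples was sequenced by the authors, who quantified transcripts with Salmon 1.9.0 against Gencode M28 on GRCm39, summed them to genes with tximport, and deposited TPM for each sample. The deposited table also holds a signal column, the mean normalized count from DESeq2 1.44.0, run by the authors, and 8 columns of the authors' own comparisons (fold changes and adjusted p-values), which were not used. Samples were grouped by genotype and treatment from the labels. Genes whose mean normalized count exceeded the 10th percentile (0.222) were kept, which left 16383 of 18204. In R 4.3.3, limma 3.58.1 was fitted to log2(TPM + 1) of all 18 samples as 6 group means, with moderated variances that follow a trend over the mean normalized count, tested on simulated data beforehand, and two-sided p-values were adjusted by Benjamini-Hochberg over the 16383 genes. Read depth is not given by TPM, so precision was judged from replicate spread. The 10 genes and the gene lists were chosen with earlier results of these data known. From the pathway lists, genes were named by rule when their adjusted p was below 0.05 with more than 1.5-fold change in any of 9 comparisons, up to 6 per list, and other list genes behind small counts were named after their values were seen; likeness took the 3 genes with the highest r. Alternatives were pseudocounts of 0.1 and 5, no filter or a mean normalized count of at least 10, median-ratio scaling, no variance trend, only the compared groups, a replicate block, and leaving out each sample. Positions and overlaps came from Gencode M39 and promoters from RefSeq. Python 3.11.15 with matplotlib 3.10.9 drew the figures.

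Results for 1 of the pathway lists, and 1 genotype comparison of the list of partners and coregulators under MTOB, are not reported here.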

Additional observations from a re-analysis of the deposited data

Results flagged for a closer look

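With MTOB the fitted difference of Nr1h3 was above 0 in wildtype (0.38, adjusted p = 0.471 by limma) and below 0 in dKO (−0.31, adjusted p = 0.566), and neither passed the test. It was flagged because the MTOB samples of the genotypes lay on opposite sides of their vehicle means. In wildtype the MTOB samples were at 5.02, 5.95 and 5.76 TPM, each above the vehicle mean of 4.21 TPM, and in dKO they were at 3.28, 3.27 and 3.08 TPM, each below the vehicle mean of 4.24 TPM. The difference between the MTOB effects was −0.68 on the log2 scale (SE 0.34, 95% interval −1.42 to 0.05, adjusted p = 0.747 by limma), so it did not pass the test. It was −0.84 with a pseudocount of 0.1, −0.38 with a pseudocount of 5 and −0.43 without wildtype vehicle replicate 2. Wildtype vehicle itself ran from 2.54 to 5.32 TPM and so overlapped wildtype MTOB. Without wildtype vehicle replicate 2 the MTOB difference of Nr1h3 in wildtype was 0.12. The mean normalized count of Nr1h3 was 32.3, and its exons overlap those of Acp2 on the opposite strand, whose part in the difference was not tested.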

How the results depend on the processing

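Counts of the 10 genes past the test changed under some alternatives, and no gene that had passed changed sign. With MTOB in wildtype the count was 2, and it was 3 with a pseudocount of 0.1 or a filter at a mean normalized count of 10 (Scd1 added, adjusted p = 0.0449 and 0.0282 by limma), 1 when other groups were left out of the fit, and 1 to 3 when single samples were left out. It was 1 without wildtype vehicle replicate 3, wildtype MTOB replicate 1 or wildtype MTOB replicate 2. With MTOB in dKO the count of 2 became 0 without a variance trend, 0 with only the compared groups and 0 to 3 with samples left out. It was 0 without dKO vehicle replicate 2 or 3 or dKO MTOB replicate 1, and 1 without dKO vehicle replicate 1 or dKO MTOB replicate 3. Between dKO and wildtype under MTOB the count of 0 became 1 with only the compared groups and 0 to 1 with samples left out, and under 4-Cl-HIPP it was 0 to 1 with samples left out. The cause was not tested.

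With the replicate number as a replicate block within genotype, the count became 1 for 4-Cl-HIPP in wildtype (Scd2, adjusted p = 0.0279 by limma), 1 for 4-Cl-HIPP in dKO (Scd2, 0.0400) and 1 for dKO against wildtype under MTOB (Scd2, 0.0122), where it had been 0; the block changed no other count of the 10 genes. The numbers did not pair the samples: deviations from the group means correlated between same-numbered samples at −0.0994 to 0.0607 in wildtype (9 pairs) and −0.136 to 0.0402 in dKO (9 pairs), with 0 pairs above 0.1.

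Over all genes the number past the test was 1189 with MTOB in wildtype and 1078 in dKO, and 699 and 305 when other groups were left out of the fit. Without dKO MTOB replicate 1 it was 1368 and 881. With 4-Cl-HIPP the number was 60 in wildtype and 82 in dKO, and 24 and 9 when other groups were left out of the fit. It ran from 19 to 72 in wildtype and from 36 to 117 in dKO when single samples were left out. The shares of all genes set beside the 4-Cl-HIPP counts move with it. Read depth is unknown, Abca1 and Arl4c rest on few reads (mean normalized counts 12.2 and 7.17), and protein and cholesterol efflux were not analysed here.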
